A study of Mus musculus with 8 samples.

Results

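Interferon-induced genes, which cells switch on or raise in answer to interferon, were followed in long-term hematopoietic stem cells (LT-HSC) of aged mice. The set was chosen by name and holds 9 genes: Ifitm1, Ifitm2, Ifitm3, Bst2, Stat2, Irf1, Irf9, Isg15 and Slfn2. All 9 had a row among the 18174 gene symbols of the deposited tables. Rows are listed only for genes seen in a library. The tables of Dlk1+ replicates 2 and 3 therefore held 8 and 6 of the 9, and the other 6 tables held all 9.

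The cells came from the bone marrow of male C57BL/6J wild-type mice, 18 months old and untreated. LT-HSC were sorted as Lin-CD150+CD48-CD34-Kit+Sca1+ cells and divided into a Dlk1+ and a Dlk1- sort. Dlk1 is a membrane protein related to the Notch ligands. RNA was measured with mCEL-Seq2, a plate method in which every well adds its own cell barcode and each captured polyadenylated RNA a unique molecular identifier (UMI). Each sort had 4 libraries of 96 wells, replicates 1 and 2 on plate 5 and replicates 3 and 4 on plate 6. Marrow of several bones was pooled and no mouse is named for a library, so tests here measure the spread between libraries, which may be technical. No sample had received interferon, so genes that are on at rest cannot be told apart from inducible ones other than by their resting level.

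Interferons are secreted proteins that bind paired receptors and switch on the JAK kinases inside the cell. Type I interferons bring Stat2 and Irf9 together in a complex that binds the interferon-stimulated response element (ISRE) of many antiviral genes, while interferon gamma acts mainly through the gamma-activated site (GAS). Irf1 is a transcription factor that both kinds of interferon can induce and that keeps some antiviral genes on at rest. The Ifitm genes encode small membrane proteins that hinder the entry of viruses into cells, and stem cells are known to express some of them without added interferon. Bst2 (tetherin) holds budding virus at the cell surface, Isg15 encodes a ubiquitin-like protein that is attached to other proteins, and Slfn2 belongs to the Schlafen family, which is linked to quiescence in T cells.

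The start regions of the genes were searched for the cores of these elements, which the choice of the set did not use. They were read from RefSeq (build GRCm38.p6) from 250 bases before to 50 bases after each annotated start. Promoters were found for all 9 members, and Irf1 and Irf9 had 2 each. The ISRE core was searched as GAAANNGAAA and the GAS core as TTCNNNGAA, on both strands. An ISRE core lay in a promoter of 5 of the 9 members, and in 3.99% of the 27025 genes of the table. A GAS core lay in 3 of the 9, and in 9.55% of all genes. The windows of 30 bases that hold every match are printed 5′ to 3′ on the gene's strand, with matched bases in capitals, because they show that the cores differ in number and place between members.
Isg15: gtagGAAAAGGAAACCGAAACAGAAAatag
Bst2: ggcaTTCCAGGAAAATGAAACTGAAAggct
Ifitm3: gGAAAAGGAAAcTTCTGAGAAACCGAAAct
Ifitm2: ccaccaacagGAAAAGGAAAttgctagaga
Stat2: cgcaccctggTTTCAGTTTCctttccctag
Irf1: acagcctgatTTCCCCGAAatgatgaggcc

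The Isg15 window (chr4:156200871-156200900, minus strand) held 3 overlapping ISRE cores that began 78 bases before the start. Bst2 (chr8:71537583-71537612, minus) held 2 overlapping ISRE cores and a GAS core that overlapped the first of them, beginning 136 bases before the start. In Ifitm3 (chr7:141010714-141010743, minus) 2 ISRE cores and a GAS core overlapping the second of them lay just inside the annotated transcript. Ifitm2 (chr7:140955988-140956017, minus) had a single ISRE core that began 46 bases before the start. Stat2 (chr10:128270266-128270295, plus) had a single one in the reverse orientation, beginning 222 bases before the start. The window of Irf1 (chr11:53769914-53769943, plus) carried a GAS core and no ISRE core. The windows of Ifitm1, Irf9 and Slfn2 held neither set of letters, which says nothing about sites elsewhere.

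The 3 Ifitm genes lie within 55.9 kb of chromosome 7 in GENCODE M21 (chr7:140954837-141010770), and their transcripts are alike. In the last 400 bases, where the 3′ tags lie, the longest identical run was 39 bases between Ifitm1 and Ifitm3, 29 between Ifitm1 and Ifitm2 and 27 between Ifitm2 and Ifitm3. Reads inside such a run could have been given to either gene, so small differences among the 3 are uncertain. Slfn2 (chr11:83065112-83070678, plus) is overlapped over 4927 bases by the antisense gene Gm20234. Irf1 is overlapped over 907 bases by Gm17334 on the opposite strand, and Ifitm2 over 1101 bases by Gm45717 on its own strand. Irf9 (chr14:55603571-55610030, plus) shares 123 bases with the neighbouring Rnf31 on its own strand. The tables held no row for Gm20234, Gm17334 or Gm45717, and whether counting used the strand is not given in the sources used here.

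After barcodes with fewer than 1000 transcripts were left out, 541 cells remained, 26 to 86 in a Dlk1+ library and 36 to 96 in a Dlk1- library. The libraries held 39073 to 456925 transcripts in Dlk1+ and 230443 to 517559 in Dlk1-. Dlk1+ replicate 3 stood apart with 26 cells of a median 1296 UMIs, against medians of 3403 to 5521 in the other 7. Gm10800 and Gm26870 took 10.1% to 32.8% of a library's UMIs. The 15 LT-HSC markers, such as Hlf, Kit and Gata2, summed to 2022 to 3819 CPM in Dlk1+ and 2783 to 3749 CPM in Dlk1- (CPM, transcript counts scaled to a library total of 1000000). Of the markers of other blood cells, 2 of 11 for T and NK cells, 4 of 9 for B cells and 6 of 9 for monocytes had transcripts in kept cells, and Cd3e, Csf1r and Lyz2 had none. Monocyte markers summed to 0 to 76.8 CPM in Dlk1+ and 7.73 to 14.7 CPM in Dlk1-. The sums were 0 to 28.5 and 16.8 to 39.1 CPM for B cells. For T and NK cells they were 0 to 28.5 and 2.10 to 15.5 CPM, Dlk1+ given first. Markers of multipotent progenitors were seen for 3 of 4 genes and summed to 0 to 81.0 CPM in Dlk1+ and 50.2 to 61.0 CPM in Dlk1-, nearly all of it Cd34 (145 UMIs; Cd48 had 5 and Cd244a none). All 7 megakaryocyte markers summed to 207 to 768 CPM in Dlk1+ and 260.4 to 425 CPM in Dlk1-, 7 of 10 erythroid markers to 58.5 to 147 and 21.7 to 80.0 CPM, and 5 of 8 plasmacytoid dendritic cell markers to 263 to 461 and 311 to 411 CPM, with Ly6d, Spib and Klk1 at none. All 9 neutrophil markers were seen and summed to 0 to 7197 CPM in Dlk1+ and 191.0 to 367 CPM in Dlk1-, where Prtn3 alone read 249, 191.0, 233 and 367 CPM. The top value was that of Dlk1+ replicate 4 and came through 1 cell in which they made up 7.89% of 36327 UMIs. Without that cell the library read 489 CPM.

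Levels were first compared among the members, because the resting level is the only measure here that separates them. Since mCEL-Seq2 counts a single 3′ tag for each transcript, CPM can be compared between genes without dividing by length. Ifitm1, Ifitm2 and Ifitm3 read at least 100 CPM in all 8 libraries and are called broadly expressed here. The name stands for the level in libraries and not for the share of cells. Before thinning, Ifitm3 was seen in 82.4% of cells and Ifitm2 in 60.6%. Bst2, Stat2, Irf1, Isg15 and Slfn2 stayed under 100 CPM in all 8 and are called sparse. For Irf1 this depends on the library total used. With Gm10800 and Gm26870 left out of it, Irf1 read 120, 127 and 105 CPM in Dlk1+ replicates 1, 2 and 4. Irf9 exceeded 100 CPM only in the shallow Dlk1+ replicate 3, where it had 4 UMIs, and otherwise lay with the sparse genes. The 3 Ifitm genes made up 87.0% to 95.9% of all transcripts of the 9 members in every library.

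**Figure D1:**
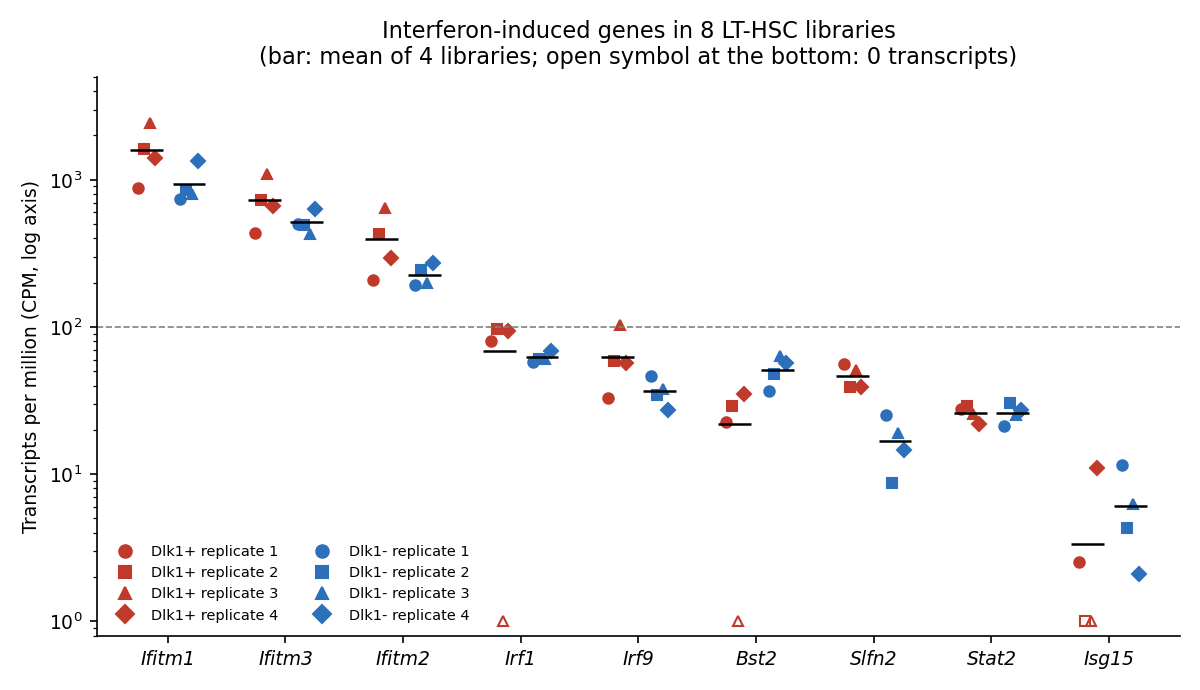
Level of the 9 genes in each library, as CPM on a log axis. Red symbols are Dlk1+ and blue symbols Dlk1- libraries, bars are means of 4 libraries, the dashed line marks 100 CPM, and open symbols drawn at the bottom stand for 0 transcripts. The Ifitm genes lie above the line in all libraries, Bst2 and Slfn2 are the members whose sorts do not overlap, and the open symbols belong to Dlk1+ replicates 2 and 3.

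Ifitm1 had the highest level. It read 885, 1611, 2433 and 1405 CPM in Dlk1+ replicates 1 to 4, and 741, 856, 796 and 1349 CPM in Dlk1- replicates 1 to 4. Dlk1+ replicate 3 was the highest and Dlk1- replicate 1 the lowest, and the sorts overlapped because Dlk1+ replicate 1 lay among the Dlk1- libraries and Dlk1- replicate 4 close to Dlk1+ replicate 4. Ifitm1 was seen in 92.1% of cells before thinning, with up to 27 UMIs in a cell.

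Ifitm3, the family member best known for blocking influenza virus, came next. Its Dlk1+ values were 432, 732, 1101 and 668 CPM, and its Dlk1- values 501, 495, 431 and 631 CPM. Here too Dlk1+ replicate 3 was the highest, while Dlk1+ replicate 1 and Dlk1- replicate 3 were nearly equal at the bottom. Ifitm2 read 210, 429, 640.0 and 296 CPM in Dlk1+ and 193.3, 243, 198 and 270.4 CPM in Dlk1-, again with Dlk1+ replicate 3 on top and an overlap at the low end. Ifitm1 made up 51.6% to 59.9% of the transcripts of the 3 genes, Ifitm3 26.4% to 34.9% and Ifitm2 12.0% to 15.5%, so their proportions varied far less between libraries than their sum, which ran from 1425 to 4174 CPM.

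Irf1 was the highest of the sparse genes by its mean. It read 80.9, 97.6, 0 and 94.1 CPM in Dlk1+ and 58.0, 60.8, 61.0 and 69.2 CPM in Dlk1-. The 0 came from the shallow Dlk1+ replicate 3, where no transcript in kept cells still allows up to 78.0 CPM (3 counts, counting error only). Its barcodes left out as cells had no Irf1 either, in 39254 UMIs under the transcript minimum and 8619 on 10 others. Over all of these UMIs the limit would be lower, and it was not computed. The other 3 Dlk1+ libraries all lay above the Dlk1- libraries. Irf9, the DNA-binding part of the type I complex, read 32.9, 58.5, 102 and 56.9 CPM in Dlk1+ and 46.4, 34.7, 37.9 and 27.2 CPM in Dlk1-. Its partner Stat2 was even across libraries, at 27.8, 29.3, 25.6 and 21.9 CPM in Dlk1+ and 21.3, 30.4, 25.2 and 27.2 CPM in Dlk1-, though these values rest on 1 to 13 UMIs a library.

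Bst2 read 22.7, 29.3, 0 and 35.0 CPM in Dlk1+ and 36.7, 47.7, 63.1 and 56.6 CPM in Dlk1-. All 4 Dlk1- libraries were above all 4 Dlk1+ libraries, by a narrow margin between Dlk1+ replicate 4 and Dlk1- replicate 1. From kept cells alone (38488 UMIs), the 0 in Dlk1+ replicate 3 has the same upper limit of 78.0 CPM, above every Dlk1- value. The barcodes of that library left out as cells had no Bst2 either, in 39254 UMIs under the transcript minimum and 8619 on 10 others. A limit over all of these UMIs would be lower and was not computed. Slfn2 showed the opposite order, with 55.6, 39.0, 51.2 and 39.4 CPM in Dlk1+ and 25.1, 8.68, 18.9 and 14.7 CPM in Dlk1-. Every Dlk1+ library lay above every Dlk1- library, on 77 UMIs in all, of which 2 to 22 fell in any 1 library.

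Isg15, whose promoter window carried the most ISRE cores, was the least abundant member. It had 17 UMIs in 15 of the 541 cells, or 2.53, 0, 0 and 10.9 CPM in Dlk1+ and 11.6, 4.34, 6.31 and 2.10 CPM in Dlk1-. The sorts overlapped, and no cell held more than 2 UMIs.

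The order of the levels was tested library by library with a two-sided exact permutation test that flips the sign of the 8 differences between neighbours, for which the smallest possible p is 0.0078. The order itself was taken from the same means. Ifitm1 exceeded Ifitm3, Ifitm3 exceeded Ifitm2 and Ifitm2 exceeded Irf1 in 8 of 8 libraries (exact p = 0.0078 each; Benjamini-Hochberg adjusted over the 8 neighbour pairs, 0.0156). Stat2 exceeded Isg15 in 8 of 8 as well, with the same p. Between Irf1, Irf9, Bst2, Slfn2 and Stat2 no neighbour stood apart beyond the spread over libraries (exact p = 0.414 to 0.734). Over all 10 pairs of these 5 genes, Irf9 exceeded Stat2 in 8 of 8 libraries and Irf1 exceeded Stat2 in 7 of 8 (exact permutation p = 0.0078 and 0.0156), and the lowest p after Benjamini-Hochberg adjustment over the 10 pairs was 0.0781.

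The sorts were compared with limma-voom, a linear model with precision weights fitted on the transcripts summed over the cells of each library, across all 5666 genes that passed the filter on low counts. Of the 9 members, 8 passed it and Isg15 did not. No member was called at a Benjamini-Hochberg adjusted p under 0.05, a threshold that 2 of the 5666 genes passed (0.0353%): Dlk1 itself and Timp3. At an unadjusted p under 0.05 stood 4 of the 8 members, Ifitm1, Ifitm2, Bst2 and Slfn2, against 6.49% of all genes. Bst2 and Slfn2 were the 2 members whose CPM did not overlap between sorts, which held for 3.14% of all genes. The median log2 fold change of the 8 members was 0.45 (Dlk1+ over Dlk1-), beside -0.04 for all genes, and 7 of the 8 were above 0. These counts describe the members and support nothing particular to them, since the members were chosen with earlier results of these data known and Slfn2 and Bst2 reached the filter through the sort in which they are high.

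**Figure D2:**
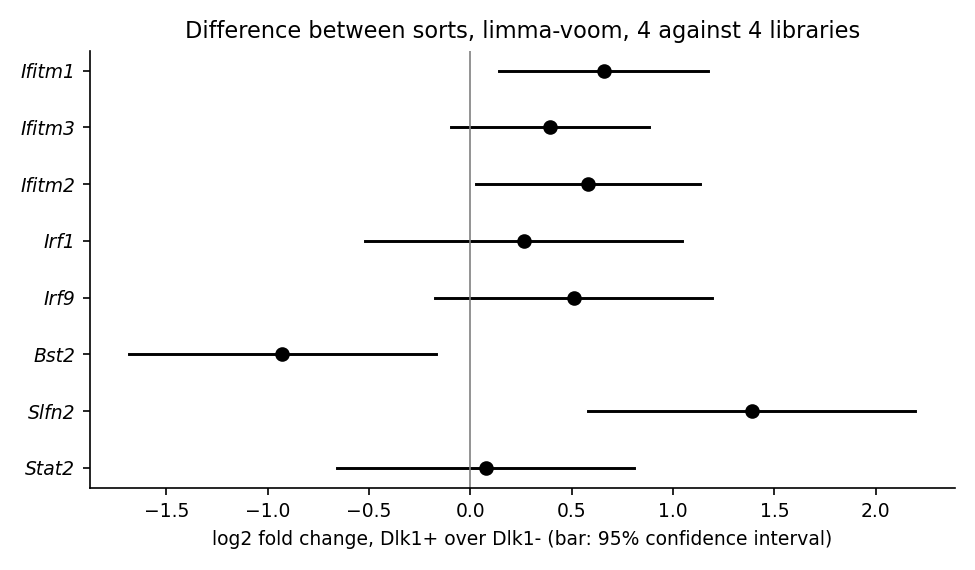
Log2 fold change between sorts (Dlk1+ over Dlk1-) of the 8 tested members, with bars for the 95% confidence interval of limma-voom. The intervals of Slfn2, Ifitm1 and Ifitm2 lie above 0 and that of Bst2 below 0 before adjustment over all genes.

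Slfn2 showed the largest difference, with 46.3 ± 8.39 CPM in Dlk1+ and 16.9 ± 6.93 CPM in Dlk1- (SD, n = 4 each). Its log2 fold change was 1.39 (SE 0.38, 95% interval 0.58 to 2.20; limma-voom adjusted p = 0.560). It passed the filter on low counts (23.5 CPM in at least 4 libraries) through the sort in which it is high, with all 4 Dlk1+ but 1 of the 4 Dlk1- libraries above that level. Without the filter the value was 1.36 (limma-voom adjusted p = 0.515). It was of like size on both plates, with a log2 ratio of mean CPM of 1.49 on plate 5 and 1.43 on plate 6. Slfn8, the other Schlafen gene that passed the filter, had a log2 fold change of 0.64 (limma-voom adjusted p = 0.763).

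Bst2 went the other way, with 21.8 ± 15.3 CPM in Dlk1+ and 51.0 ± 11.4 CPM in Dlk1- (SD, n = 4 each). The log2 fold change was -0.93 (SE 0.36, 95% interval -1.68 to -0.17) and the limma-voom adjusted p 0.701. Without the shallow Dlk1+ replicate 3, whose value of 0 sets the lower end, it was -0.71. The log2 ratio of mean CPM was -0.70 on plate 5 and -1.77 on plate 6, the plate of that library.

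Ifitm1 read 1584 ± 643 CPM in Dlk1+ and 935 ± 280 CPM in Dlk1- (SD, n = 4 each). The log2 fold change was 0.66 (SE 0.24, 95% interval 0.14 to 1.17; limma-voom adjusted p = 0.701). For Ifitm2 the means were 394 ± 187 and 226 ± 37.1 CPM and the log2 fold change 0.58 (95% interval 0.03 to 1.13, adjusted p = 0.718). For Ifitm3 they were 733 ± 277 and 515 ± 83.9 CPM with 0.39 (95% interval -0.10 to 0.88, adjusted p = 0.791). Replicate 3 was the upper end of the Dlk1+ spread in all 3 genes, and without it the log2 fold changes of Ifitm1, Ifitm2 and Ifitm3 were 0.46, 0.37 and 0.22. When only cells of at least 2000 transcripts were kept, of which that library had 4, Ifitm1 was at 0.35 and Ifitm3 at 0.25, while Slfn2 was at 1.23. Without the cell rich in neutrophil markers, which held 19 UMIs of Ifitm1, the log2 fold change of Ifitm1 was 0.69. On the plates taken singly, the log2 ratios were 0.65 and 0.84 for Ifitm1, 0.55 and 1.00 for Ifitm2, and 0.23 and 0.74 for Ifitm3, plate 5 given first.

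For the 3 transcription factors the intervals all included 0. Irf9 had a log2 fold change of 0.51 (95% interval -0.17 to 1.19), Irf1 0.26 (-0.52 to 1.05) and Stat2 0.08 (-0.66 to 0.81). Irf1 pointed in opposite directions on the plates, with a log2 ratio of 0.59 on plate 5 and -0.47 on plate 6, where Dlk1+ replicate 3 was at 0. Without that library its log2 fold change was 0.55, without Dlk1+ replicate 1 it was 0.06 and without Dlk1+ replicate 2 it was 0.04. That of Irf9 was 0.24 without Dlk1- replicate 4. Isg15 averaged 3.37 ± 5.19 CPM in Dlk1+ and 6.09 ± 4.06 CPM in Dlk1- (SD, n = 4 each). An exact two-sided permutation test over 70 assignments gave p = 0.457. Cells with a transcript were counted next. At low counts the share of such cells also follows the mean level. Neither it nor the transcript total can therefore tell fewer expressing cells from less RNA per cell.

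Every cell was thinned to 1000 UMIs, since a deeper cell shows more genes, and the share of cells with at least 1 UMI was taken in each library. No cell had to be left out. For Ifitm1 the share was 59.3%, 77.8%, 88.5% and 67.9% in Dlk1+ and 55.2%, 50%, 47.4% and 69.1% in Dlk1-. Only Dlk1- replicate 4 reached into the Dlk1+ range. The means were 73.4% ± 12.6 and 55.4% ± 9.71 (SD, n = 4 each). The two-sided exact permutation test over libraries gave p = 0.0857, or 0.797 after Benjamini-Hochberg adjustment over 2595 genes. The difference of 17.9 percentage points was 10.2 with Gm10800 and Gm26870 left out before thinning (an alternative added after seeing the data) and 3.38 without thinning. Before thinning the shares ran from 92.3% to 100% in Dlk1+ and from 84.2% to 98.9% in Dlk1-, at median depths of 1296 to 5521 UMIs.

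For Ifitm2 the thinned share was 19.8%, 44.4%, 53.8% and 23.5% in Dlk1+ and 18.8%, 16.7%, 15.8% and 24.5% in Dlk1-. Replicates 2 and 3 of Dlk1+, the libraries with the fewest cells, were high and the other Dlk1+ libraries lay within the Dlk1- range (exact permutation p = 0.0857, adjusted p = 0.797). Ifitm3 was seen in 45.9% ± 9.0 of Dlk1+ and 36.7% ± 7.75 of Dlk1- cells (SD, n = 4 each, exact permutation p = 0.200, adjusted p = 0.797). The Ifitm2 difference of 16.5 percentage points was 10.3 without Dlk1+ replicate 3. For Ifitm3 the difference of 9.24 fell to 5.31 when Dlk1+ replicate 3 was left out, and to 5.79 when Dlk1- replicate 3 was. Irf1 and Irf9 were seen in 8.69% and 5.55% of all thinned cells, with exact permutation p of 0.943 and 0.143 between sorts. Bst2, Stat2, Slfn2 and Isg15 stayed under the 5% of cells set for this test, at 4.07%, 2.59%, 3.51% and 0.370%. By library, the thinned shares of Slfn2 and Bst2 overlapped between sorts, unlike their CPM. Slfn2 ran from 0% to 7.69% in Dlk1+ and from 1.04% to 4.21% in Dlk1-. Bst2 ran from 0% to 5.81% in Dlk1+ and from 1.04% to 6.38% in Dlk1-. At an unadjusted p under 0.05 stood none of the 5 members tested and 3.51% of the 2595 genes, and none of these genes passed after adjustment.

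**Figure D3:**
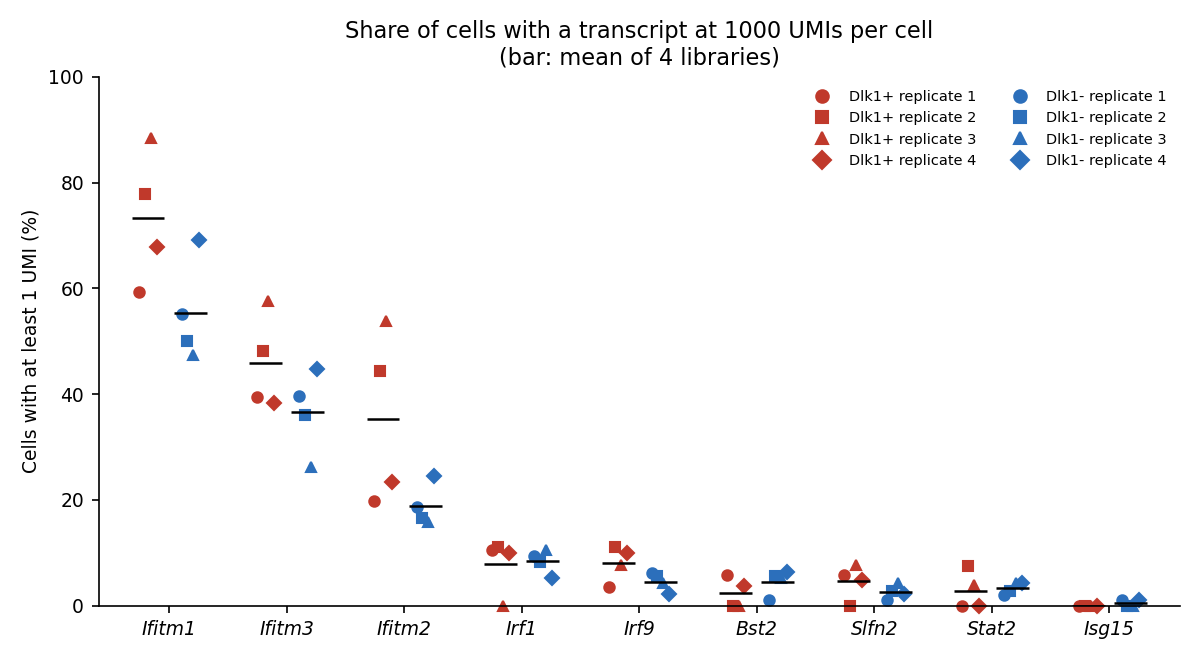
Share of cells with at least 1 UMI of each gene after thinning to 1000 UMIs per cell, by library, with means of 4 libraries as bars. Ifitm1 lies between 47.4% and 88.5% of cells, and the 6 genes outside the Ifitm group stay at or below 11.1%.

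Depth moved with the Ifitm1 level. Barcodes of 200 to 999 transcripts, left out as cells, numbered 63, of which 56 came from Dlk1+ replicate 3. On barcodes of 500 to 999 transcripts in the Dlk1+ libraries, Ifitm1 read 3825 CPM (exact Poisson 95% interval 3228 to 4501). With the kept cells of that sort pooled by depth, Ifitm1 read 2331 CPM at 1000 to 1999 transcripts, 1565 at 2000 to 3999, 1419 at 4000 to 5999 and 878 at 6000 or more. The shallowest of these classes was mostly 1 library: 22 of its 29 cells came from Dlk1+ replicate 3, and without them it read 1383 CPM, on 17 UMIs in 7 cells, below the class of 2000 to 3999 (1562 CPM without that library). In the Dlk1- cells the same classes gave 842, 1090, 1147 and 770.5 CPM, with no higher level in the shallowest class. Within libraries, cells of 6000 or more transcripts had a lower Ifitm1 level than those of 4000 to 5999 in 7 of the 7 libraries with at least 3 cells in both classes, and Ifitm3 did so in 7 and Ifitm2 in 5. Against cells of 2000 to 3999 transcripts, the level at 6000 or more was lower in 6 of 7 libraries for Ifitm1, in 4 for Ifitm3 and in 1 for Ifitm2.

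Taken by library within a depth class, the sorts overlapped for all 3 Ifitm genes. At 2000 to 3999 transcripts the 4 Dlk1+ libraries averaged 1665 ± 389 CPM of Ifitm1 and the 4 Dlk1- libraries 1137 ± 384 CPM. At 4000 to 5999 it read 1366 ± 300 CPM in 3 and 1176 ± 366 CPM in 4, and at 6000 or more 689 ± 409 CPM in 3 and 761 ± 174 CPM in 4 (SD over libraries). In that deepest class the library means and the pooled values thus order the sorts differently. The part of depth in the sort difference was not tested beyond these values.

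**Figure D4:**
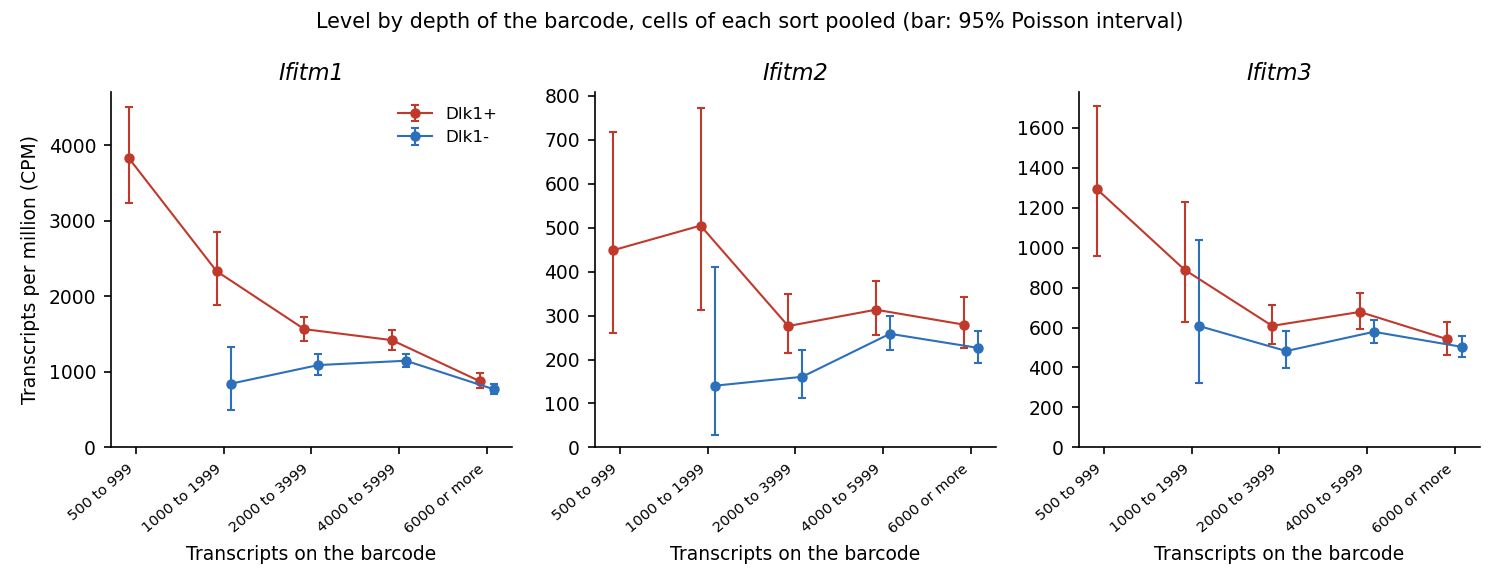
Level of Ifitm1, Ifitm2 and Ifitm3 in CPM by the number of transcripts on the barcode, cells of each sort pooled, with exact Poisson 95% intervals that cover counting error only. Dlk1+ levels of Ifitm1 descend from 3825 CPM at 500 to 999 transcripts to 878 CPM at 6000 or more, with 49 of the 52 barcodes at 500 to 999 and 22 of the 29 at 1000 to 1999 from Dlk1+ replicate 3. The class of 500 to 999 has no Dlk1- point because the Dlk1- libraries had 1 such barcode. Barcodes of fewer than 500 transcripts, which both sorts had, are not drawn.

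How the 3 Ifitm genes met in single cells was described on the thinned cells. Of 541 cells, 123 (22.7%) showed no UMI of any of the 3 and 48 (8.87%) showed all 3. The share without any was 25.6%, 7.41%, 0% and 16.0% in Dlk1+ replicates 1 to 4 and 22.9%, 30.6%, 37.9% and 18.1% in Dlk1- replicates 1 to 4. Of the 26 cells of Dlk1+ replicate 3 each had at least 1 of the 3 genes, and 0 of 26 allows a share of up to 11.5%. All 3 were seen in 7.41% to 23.1% of Dlk1+ and 2.11% to 9.57% of Dlk1- cells by library.

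**Figure D5:**
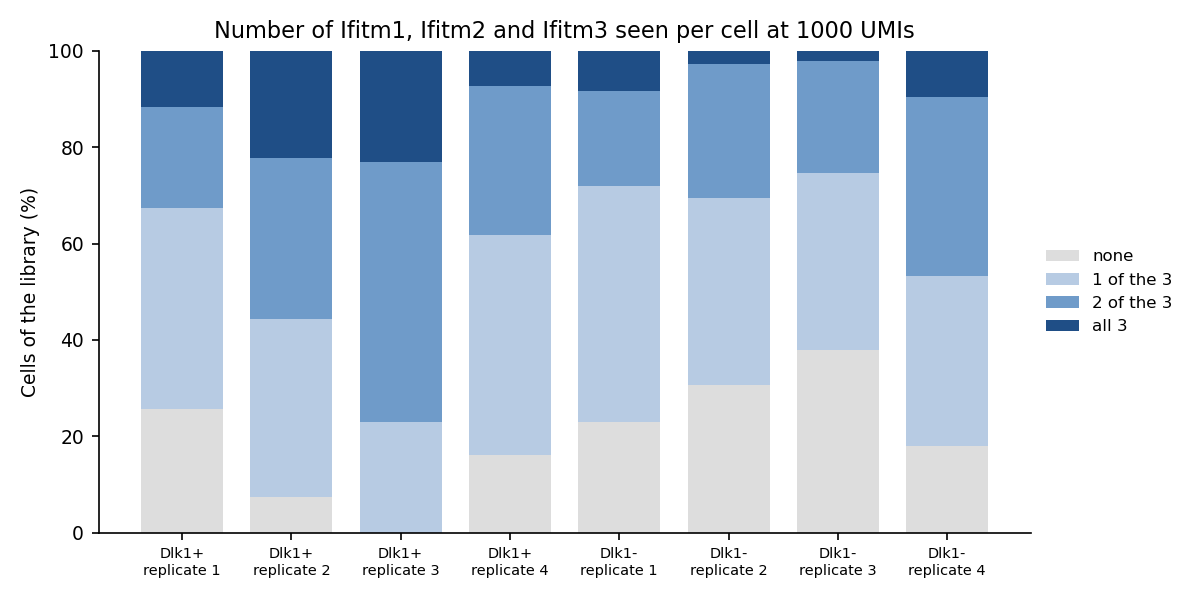
Share of cells in which none, 1, 2 or all 3 of Ifitm1, Ifitm2 and Ifitm3 had a UMI after thinning to 1000 UMIs, by library. Cells without any range from 0% in Dlk1+ replicate 3 to 37.9% in Dlk1- replicate 3.

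Cell to cell, Ifitm1 varied more than counting alone, with a variance-to-mean ratio of 1.55 averaged over 8 libraries. That placed it at percentile 89.5 of the 200 genes nearest in mean, whose median was 1.19. Ifitm3 stood at 1.19 (percentile 67.0) and Ifitm2 at 0.95 (percentile 5.50), so Ifitm2 was among the more evenly spread genes of its level. Irf1 stood at 1.15 (percentile 93.0) and Irf9 at 1.04 (percentile 69.0). Within libraries, the mean Pearson correlation of log2(thinned UMIs + 1) was 0.14 between Ifitm1 and Ifitm3, positive in each of the 8 libraries, 0.04 between Ifitm2 and Ifitm3 and 0.02 between Ifitm1 and Ifitm2. These are weak values in sparse counts and are given as a description.

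The genes most like each Ifitm gene were ranked among 383 genes seen in at least 20% of thinned cells. For Ifitm1 they included Rpl10 (mean within-library r = 0.27) and Rps14 (0.24), both ribosomal proteins. Ifitm2 gave U2af2 (0.21), a splicing factor, Cd81 (0.16), a membrane tetraspanin, and Gpi1 (0.15), a glycolytic enzyme. Those of Ifitm3 included Ly6e (0.21), itself an interferon-induced membrane protein, and Eef1a1 (0.20), a translation factor. These means top a ranking and varied widely between libraries. U2af2 ran from -0.12 to 0.60, Cd81 from -0.09 to 0.50 and Gpi1 from -0.08 to 0.50. Rpl10 ran from -0.02 to 0.48, Rps14 from -0.05 to 0.53 and Eef1a1 from -0.01 to 0.37. Of the genes named, only Ly6e stayed above 0 in every library (0.01 to 0.43). At the other end, Gm10800 had an r of -0.26 with Ifitm3 and -0.14 with Ifitm1 (in cells thinned to a fixed total, a gene that takes more leaves fewer UMIs for the rest). The median r over all 383 genes was 0.04, 0.02 and 0.05 for the 3 genes, which share library, depth and thinning.

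The sparse members seldom met in the same cell. At 1000 UMIs, 12 of 541 cells (2.22%) had at least 2 of the 6 genes outside the Ifitm group, and 77.6% had none. Each of the 6 was seen in only 0.370% to 8.69% of these cells, so few joint cells follow from the shares alone. Whether the genes met more or less often than that was not tested. In the unthinned cells 233 had none, 199 had 1, 78 had 2 and 31 had more, and the median depth was 4138 UMIs in cells with none and 5213 in cells with 2. The 15 cells with Isg15 had a median of 5 inducible genes from the list described next, against 4 in cells without it, at median depths of 5234 and 4534 UMIs.

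The wider pathway was read from lists of its parts. Of 19 interferon genes, from Ifnb1 and the Ifna family to Ifng and the lambda interferons, none had a row in any table. All 6 receptor genes had transcripts, led by Ifngr1 (81.4 CPM, mean of 8 libraries), Ifnar2 (48.6) and Il10rb (23.4), which serves the lambda and interleukin-10 receptors. Of the 3 that passed the filter, 0 were called. Il10rb read 25.6 to 39.4 CPM in Dlk1+ and 8.68 to 25.2 CPM in Dlk1-, with a log2 fold change of 1.22 (limma-voom adjusted p = 0.602). Like Slfn2 it passed the filter through Dlk1+, with 1 of the 4 Dlk1- libraries above it. All 9 kinases and STAT factors were present, led by Jak1 (301.6 CPM), Stat3 (194) and Stat6 (68.6), and 0 of 8 tested were called.

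Among the other IRF factors and their binding partners, 9 of 10 had transcripts and 0 of 6 tested were called. Irf2, which competes with Irf1 for DNA, averaged 133 CPM, Irf3 61.7 and Irf2bpl 55.9. Of 12 negative regulators, led by Socs3 (168 CPM), Ptpn6 (121) and Ptpn1 (90.1), 0 of 9 tested were called. Socs3, which damps JAK signalling, read 215, 283, 76.8 and 315 CPM in Dlk1+ and 101, 104, 98.9 and 149 CPM in Dlk1-. Only the shallow Dlk1+ replicate 3 lay below the Dlk1- values, and the log2 fold change was 1.04 (limma-voom adjusted p = 0.560). The list of sensors of foreign nucleic acid and related genes was led by Samhd1 (81.6 CPM), Tmem173 (46.6) and Eif2ak2 (43.7), with 0 of 5 tested called.

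Of 48 genes listed as strongly inducible by interferon, 35 had transcripts in kept cells and 19 passed the filter. Their sum was 1102 to 1843 CPM in Dlk1+ and 1016 to 1329 CPM in Dlk1-, led by Lgals3bp (279 CPM), Sp100 (149.9) and Ifi203 (142). Of the 19, 0 were called and 12 had log2 fold changes above 0, with a median of 0.28. Among 28 genes induced mainly by interferon gamma, led by Tapbp (182), Gbp7 (163) and Psmb8 (118), 0 of 13 tested were called and 9 lay below 0, with a median of -0.13. At an unadjusted p under 0.05 by limma-voom stood 1 gene each among the receptors, the kinases and STAT factors and the negative regulators, 2 of the interferon gamma genes and 0 in the other lists, beside 6.49% of all genes. The ISG15 conjugation genes Uba7 (158 CPM), Ube2l6 (145) and Arih1 (77.6) were present beside an Isg15 mean of 4.73 CPM, and 0 of 5 tested in that list were called. The other Ifitm genes were nearly absent: Ifitm7 averaged 14.7 CPM, Ifitm5 1.38 and Ifitm6 4.11, with all Ifitm6 in Dlk1+ replicate 4, where the cell rich in neutrophil markers held 413 CPM of it. Among other Schlafen genes Slfn8 led with 36.1 CPM, ahead of Slfn5 (3.98) and Slfn4 (1.64).

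Single cells with many inducible genes were few once cells were thinned. At 1000 UMIs, 24 of 541 cells (4.44%) had at least 4 genes of the inducible list, and no thinned cell had more than 6. They were 11 of 220 Dlk1+ and 13 of 321 Dlk1- cells. By library the share ran from 0% to 14.8% in Dlk1+ and from 0% to 7.45% in Dlk1-. Few such cells follow from the few inducible UMIs a cell holds at this depth. At full depth the median was 4 inducible genes in the 526 cells without Isg15 and 5 in the 15 with it. Before thinning, the cell with the most was in Dlk1- replicate 4, with 18 of the 36 listed genes that have a row and 34 of its 6819 UMIs on them. That cell had 13 UMIs of Ifitm1, 4 of Irf1, 1 each of Stat2 and Irf9 and none of Isg15. The median over cells was 0.95 to 1.81 inducible UMIs per 1000 by library, highest in Dlk1+ replicate 3.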

How the data were processed

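Single-cell RNA of 8 mCEL-Seq2 libraries, 4 Dlk1+ and 4 Dlk1-, was used as deposited. The authors' tables hold estimated transcript counts per gene and barcode, not scaled for depth, in 192 barcode columns. Per the submitters' processing notes, BWA 0.6.2-r126 and the build mm10 were used, while the annotation and the read filters are not given in the sources used here. The deposited values are UMI counts corrected for collisions among 4096 UMIs. Inverting the correction gave whole UMIs to within 3.64e-12, and these were used for thinning and shares.

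Own barcodes (1 to 96 in Dlk1+, 97 to 192 in Dlk1-) with at least 1000 transcripts were kept, without barcodes 17, 20 to 24 and 29 to 32, which carried 25978 UMIs in the Dlk1- tables, outside the range of those libraries' own cells. No doublet caller was run. Transcripts were summed per library and rounded. The count test planned as the main one was not run, because the unit could not be checked automatically, and limma-voom (limma 3.58.1, R 4.3.3) took its place as planned. It used trimmed-mean scaling, sort as the only term and genes at or above 23.5 CPM (10 counts at the median library) in at least 4 libraries with a total of at least 15. P-values were adjusted by Benjamini-Hochberg at 0.05, and the script was tested on simulated data. Shares were compared by two-sided exact permutation over 70 assignments (smallest possible p 0.0286), for genes seen in at least 5% of thinned cells. Intervals are 95% and, like floors of 3 counts, cover counting error only. Promoters came from RefSeq (GRCm38.p6) and gene positions and transcripts from GENCODE M21.

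All 9 members are named, with the 3 highest genes of each pathway or family list and the 3 genes most like each broadly expressed member. Some of these are not reported here. Members and lists were chosen with earlier results of these data known. Alternatives were other scalings, filters, cell minimums and thinning, the replicate block, a plate term and leaving out each library.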

Additional observations from a re-analysis of the deposited data

Results flagged for a closer look

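Irf1 was seen in 0 of the 26 thinned cells of Dlk1+ replicate 3, a share of 0%, against 9.88% to 11.1% in the other 3 Dlk1+ libraries. The gap took 0.889 of the group's range, above Dixon's critical value for 4 samples at the 95% level. It was the only such sample among 35 groups of 4 values tested (level and share of each member in each sort), where chance gives about 1 in 20. For these 26 thinned cells alone, the count of 0 allows a share of up to 11.5%, which covers the other libraries. Irf1 was also absent from the 38488 UMIs of these cells before thinning. The barcodes of that library left out as cells had none either, in 39254 UMIs under the transcript minimum and 8619 on 10 others. A limit from all these UMIs together would be lower than one from the kept cells and was not computed. The cause was not tested.

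Members also had transcripts on barcodes that no comparison used. The unused side of the tables, 728 barcodes with 23663 UMIs in all, held 60 UMIs of Ifitm1 on 58 barcodes. That is 2536 CPM, against 1095 CPM over all kept cells. Ifitm2 and Ifitm3 had 3 and 6 UMIs there and read below their level in cells, at 127 and 254 CPM.

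On the 187 own barcodes under the minimum of 1000 transcripts, which held 47282 UMIs and lay mostly in Dlk1+ replicate 3 by UMIs, 6 members read higher than in kept cells. Ifitm1 read 3828 CPM there (181 UMIs), Ifitm2 402 CPM against 256 in kept cells, and Ifitm3 1057 against 565. Of the 181 UMIs of Ifitm1, 155 lay in Dlk1+ replicate 3 and 21 in Dlk1- replicate 2, there on 60 barcodes with 3527 UMIs. Stat2 read 84.6 CPM on 4 UMIs, and Irf9 and Slfn2 each read 190.3 CPM on 9 UMIs. The cause was not tested.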

How the results depend on the processing

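No member was called under any of the 20 alternatives run (with cells thinned before summing, only the 3 Ifitm genes passed the filter). Of 155 fold changes of members recomputed, 153 kept their direction. The exceptions were Stat2, at -0.12 without Dlk1+ replicate 1 and -0.01 without Dlk1- replicate 1. The number of genes called, 2 at first, was 4 with the 10 barcodes kept and 1 with at least 2000 transcripts per cell, with cells thinned before summing (926 genes tested) and with the replicate block. Leaving out 1 library gave 1 to 19, the 19 without Dlk1+ replicate 4, and 1 without Dlk1+ replicate 2 or Dlk1- replicate 3. Across alternatives Ifitm1 ran from 0.35 to 0.83, Slfn2 from 1.12 to 1.70 and Bst2 from -1.09 to -0.71, with lowest limma-voom adjusted p of 0.277, 0.106 and 0.333.

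Same-numbered libraries deviated together by a correlation of only 0.04 to 0.06. Differently numbered libraries were not set beside them, so this cannot tell whether the numbers pair the samples. The share of Gm10800 and Gm26870 was lowest in replicate 4 of both sorts, at 10.1% in Dlk1+ and 11.7% in Dlk1-. With the replicate block Ifitm1 was at 0.65, Slfn2 at 1.44 and Bst2 at -0.91 (each with a limma-voom adjusted p = 0.83). For shares, 72 of 80 recomputed differences between sorts (percentage points, Dlk1+ minus Dlk1-) kept their direction. Without thinning, Ifitm2 was at -0.39 and Ifitm3 at -7.29. Irf1, -0.53 at first, was at 0.014 with the 10 barcodes kept, 0.40 with another seed, 2.14 at 2000 UMIs, and -1.61 to 2.10 leaving out 1 library, above 0 without Dlk1+ replicate 3 or Dlk1- replicate 3 (0.19). Irf9 was at -0.25 with another seed. The planned DESeq2 and edgeR alternatives were not run. Depth limits these values: 6 members rest on 17 to 191 UMIs in all, and the median 95% interval of a gene spanned 1.47 on the log2 scale.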
